A study of Mus musculus with 14 samples.

Results

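The miR-23, miR-24 and miR-27 miRNAs were described in plasma of mice with osteosarcoma (OS), the primary tumor of bone, and of disease-free controls. The assays were chosen by name: every named well whose miRNA is miR-23a, miR-23b, miR-24, miR-27a or miR-27b, on either strand of its hairpin. This gave 6 assays of the 389 miRNAs with a named well: mmu-miR-23a, mmu-miR-23b, mmu-miR-24, mmu-miR-27a, mmu-miR-27b and mmu-miR-27a*, the last being the opposite strand of the miR-27a hairpin. All 6 were measured in every mouse.

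Plasma came from 6 wild-type littermates, given in the methods as p53+/+;Cre+/−, and from 8 genetically engineered (GEMM) mice with OS. The GEMM mice carry Cre recombinase under the 2.3 kb Col-α1(I) promoter, which is active in osteoblasts, and 1 or both Trp53 alleles flanked by LoxP sites, so Trp53 is deleted in osteoblasts. Which of the mice lost 1 and which lost both alleles was not used here, since the labels place all of them in a single group, and no age is given per mouse. Blood was drawn into EDTA by cardiac puncture, in OS mice once a tumor had developed, so the Cre transgene was carried by both groups and the floxed alleles and the tumor by the OS group alone. Each value is a quantification cycle (Cq) of a quantitative PCR well. It lies on a log2 scale, and 1 cycle less stands for about a doubling of the miRNA. To make a normalized level, the Cq of an assay was subtracted from the global mean Cq of its mouse, which puts abundant miRNAs at high values.

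In the genome the miRNAs of these families lie in a pair of clusters, each holding 3 hairpins that are cut from a single primary transcript. The clusters are known from the vessel wall and from blood cells, miR-27 for restraining the making of fat cells through Pparg, miR-23 and miR-27 for the growth of vessels, and miR-24 for the control of the cell cycle. The cluster of miR-23a has also been studied as a brake on the maturation of osteoblasts. In plasma work miR-23a has a second use: it is taken as a miRNA that red blood cells hardly release, against which miR-451, which they hold in abundance, is read as a sign of haemolysis.

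Cluster a, with Mir23a, Mir27a and Mir24-2, lies on the plus strand at chr8:84208518-84208921 of GRCm38.p6 and spans 404 bases. No protein-coding gene spans it, and the next one up the coordinate is Zswim4, which begins 2020 bases beyond it. Cluster b, with Mir23b, Mir27b and Mir24-1, lies on the plus strand at chr13:63300484-63301275, spans 792 bases and sits within the span of Aopep, an aminopeptidase gene. Mature sequences for 5 of the 6 assays were found in RefSeq for that build. They are shown 5′ to 3′ with the seed, bases 2 to 8, in capitals, because the sequences show which assays look for near-identical RNAs and which genes can give the same one.
mmu-miR-23a: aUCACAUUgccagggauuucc
mmu-miR-27a: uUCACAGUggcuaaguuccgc
mmu-miR-27b: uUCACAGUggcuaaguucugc
mmu-miR-24: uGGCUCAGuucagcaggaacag
mmu-miR-27a*: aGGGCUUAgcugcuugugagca

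The mature miR-27a and miR-27b share their seed and are identical at 20 of 21 bases, with the substitution C19U from miR-27a to miR-27b, counted from 1 at the 5′ end. The seed of miR-23a differs from that of miR-27 by 1 of 7 bases, U7G. miR-24 and miR-27a* each have a seed of their own. The mature miR-24 of Mir24-2 in cluster a and of Mir24-1 in cluster b is the same 22 bases, so its assay reads both clusters together. How far the miR-27a and miR-27b assays, or those of miR-23a and miR-23b, detect each other's miRNA was not tested. The hairpin of Mir27a, at chr8:84208672-84208758 on the plus strand, is shown with both mature strands in capitals, miR-27a* first and miR-27a second, because these 2 strands of a single precursor gave plasma values that differed in level and in spread. The 2 strands were read on different PCR panels, miR-27a on panel I and miR-27a* on panel II.
Mir27a hairpin: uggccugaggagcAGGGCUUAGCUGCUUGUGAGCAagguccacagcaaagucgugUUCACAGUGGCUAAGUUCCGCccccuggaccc

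miR-24 and miR-23a were the most abundant of the 6 in plasma. Over the 14 mice the mean normalized level was 6.97 ± 0.571 (SD) for miR-24 and 6.94 ± 0.603 for miR-23a, ranks 11 and 12 among 276 miRNAs with a value in all 14 mice. The pair did not differ beyond the spread between mice, with miR-24 the higher in 7 of 14 (exact sign-flip permutation test, two-sided, adjusted p = 0.696). miR-27a followed at 5.07 ± 0.904, below miR-23a in 14 of 14 mice by 1.87 ± 0.984 (exact permutation test, adjusted p = 0.000305). miR-27a and miR-23b, at 4.70 ± 0.485, were not separated either (difference 0.37 ± 1.03, adjusted p = 0.253), though with OS replicate 10 left out this step passed too and 4 of the 5 steps in the order did in place of 3. miR-27b stood at 3.52 ± 0.742, lower than miR-23b in 13 of 14 mice (adjusted p = 0.000407). miR-27a* was the scarcest at -0.60 ± 1.47, rank 185 of 276 and lower than miR-27b in 14 of 14 mice (adjusted p = 0.000305). Assays can differ in efficiency, so the order is that of the assay readings and not of molecules.

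No assay of the clusters passed the test between OS and control mice. By limma with Benjamini-Hochberg adjustment over 388 miRNAs the count was 0 of 6, against 49 of all 388 tested, or 12.6%. At an unadjusted p of 0.05 the count was also 0 of 6, against 119 of 388, or 30.7%. The methods' t-test, adjusted in the same way, called 0 of 6 against 24 of 388, or 6.19%. The median difference of the 6 was -0.12 on the log2 scale, beside -0.0027 over all 388.

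miR-23a, the haemolysis reference, had normalized levels of 7.24, 6.88, 6.68, 7.49, 6.31 and 6.53 in control replicates 1, 2, 3, 4, 13 and 14. In OS replicates 10, 11, 12, 15, 16, 17, 18 and 19 they were 7.18, 7.93, 7.51, 6.08, 6.88, 7.72, 5.96 and 6.75. The groups overlapped, with 3 OS mice above every control and 2 below every control. The difference was 0.14 ± 0.37 (SE, 95% interval -0.63 to 0.92, limma adjusted p = 0.828).

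miR-23b, its relative in cluster b, ran from 4.30 to 5.24 in controls with a median of 4.50. In OS mice it ran from 4.00 to 5.45 with a median of 4.85, so both ends of the OS range lay outside that of the controls. The difference was 0.16 ± 0.33 (SE, limma adjusted p = 0.782). miR-24 ran from 6.16 to 7.43 in controls, median 7.14, and from 5.96 to 7.78 in OS, median 7.05, with a difference of 0.03 ± 0.36 (SE, 95% interval -0.73 to 0.79, limma adjusted p = 0.975). The range of miR-24 in controls lay within that in OS.

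miR-27a showed the largest difference of the 6, downward in OS. Its normalized levels were 5.85, 5.69, 5.54, 5.34, 5.34 and 5.52 in control replicates 1, 2, 3, 4, 13 and 14. In OS replicates 10, 11, 12, 15, 16, 17, 18 and 19 they were 2.84, 5.27, 4.75, 4.78, 4.42, 6.67, 4.73 and 4.20. 7 of 8 OS mice lay below every control, and OS replicate 17 lay above every control. The difference was -0.84 ± 0.44 (SE, 95% interval -1.77 to 0.084, limma adjusted p = 0.208). Without OS replicate 17 it was -1.11 and passed (limma adjusted p = 0.0466). On unscaled Cq miR-27a was 26.1 ± 0.662 in controls and 27.4 ± 1.19 in OS, 1.28 cycles later in OS (exact permutation test, two-sided, p = 0.0386, not adjusted).

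miR-27b had the same shape. It stood at 3.88, 3.98, 3.80, 3.72, 3.82 and 4.24 in control replicates 1, 2, 3, 4, 13 and 14, a span of 0.520. In OS replicates 10, 11, 12, 15, 16, 17, 18 and 19 it stood at 3.09, 2.93, 2.84, 3.74, 2.81, 5.08, 3.32 and 2.08, with 6 of 8 below every control and replicate 17 again the one above them. The difference was -0.67 ± 0.39 (SE, 95% interval -1.49 to 0.15, limma adjusted p = 0.242), and -0.93 without OS replicate 17 (limma adjusted p = 0.0485). Leaving out that mouse brought the count called to 2 of 6, and no other mouse left out brought it above 0.

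**Figure D1:**
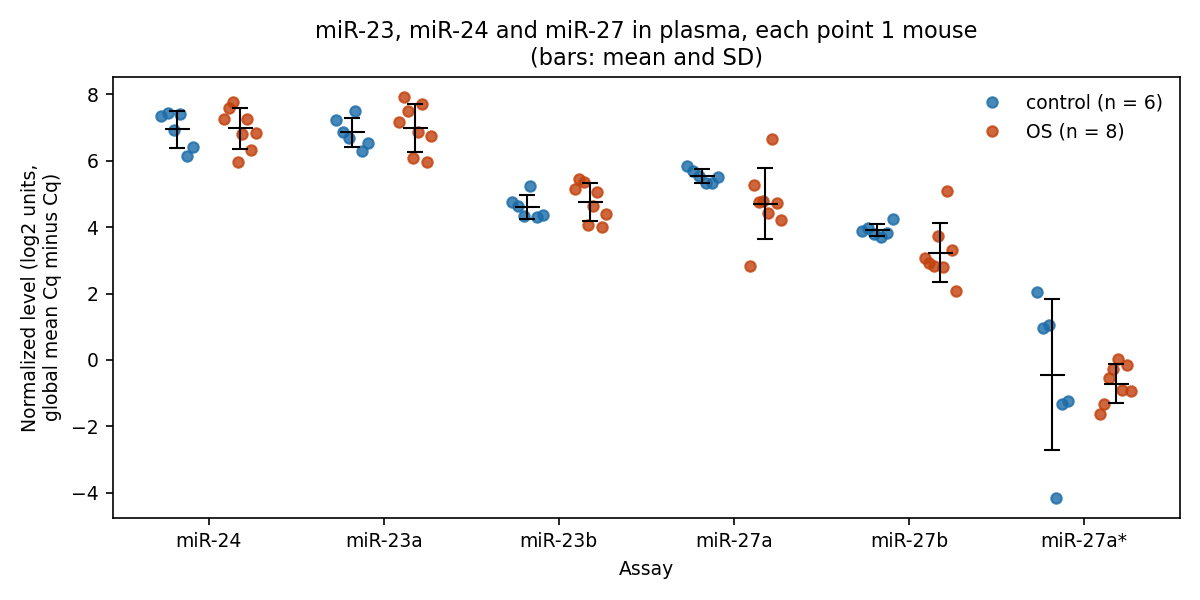
Normalized level (log2 units, global mean Cq minus Cq) of the 6 assays in 6 control (blue) and 8 OS (orange) mice, with the mean and SD as black bars. The groups overlap for miR-24, miR-23a and miR-23b, while for miR-27a 7 of 8 OS mice lie under a tight row of controls and 1 lies over it.

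Sets of miRNAs known from blood cells and vessels were set beside the members in the test between OS and control. Over all 388 tested 12.6% were called and 6.44% called lower. Sets of 4 to 8 miRNAs are too small for their counts to be told apart from these shares. Of 8 red blood cell miRNAs tested of 10 listed, 1 was called lower (miR-144, -2.38 ± 0.56 SE, limma adjusted p = 0.0131) and 0 higher, with a median of -0.65. Their summed level ran from 12.0 to 14.1 in controls and from 9.84 to 13.0 in OS. Of 6 white blood cell miRNAs 1 was called lower (miR-142-3p, -3.57 ± 0.64 SE, limma adjusted p = 0.00326), with a median of -0.33. The differences of miR-142-5p, miR-223, miR-155, miR-150 and miR-146a were -1.18, -0.49, -0.16, 0.02 and 0.08, none of them called. The summed level of the 6 was 7.86 to 9.40 in controls and 6.61 to 7.78 in OS, with no overlap, as was also the case for 1.81% of the 276 single miRNAs. Of 4 platelet miRNAs tested, miR-24 itself among them, and 4 of the vessel wall, 0 were called, with medians of -0.23 and -0.54. Summed levels ran from 8.02 to 8.94 against 7.84 to 8.60 for platelets and from 6.60 to 7.48 against 6.21 to 6.74 for the vessel wall. Every miRNA tested in these sets was measured in every mouse. The median r of the red blood cell miRNAs with miR-27a over the 14 mice was 0.59. It was 0.30 for the white blood cell, 0.23 for the vessel wall and 0.06 for the platelet miRNAs, beside 0.07 over 275 miRNAs of the panel. With miR-451 as a covariate the difference in miR-27a was -0.40 (limma adjusted p = 0.729) in place of -0.84, and that in miR-27b was -0.45 (limma adjusted p = 0.694) in place of -0.67. miR-451 itself differed by -1.43 between the groups (limma adjusted p = 0.132), so the covariate and the group cannot be told apart. The r of miR-27a with miR-451 was 0.61 over all mice and -0.40 within controls. Without OS replicate 10 and control replicate 3 it was 0.18. The part of any of these sets in the miR-27a values was not tested, and in plasma fewer cells of a type and less RNA released per cell cannot be told apart.

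On normalized levels, miR-27a and miR-27b were the steadiest miRNAs of the panel within the controls. Their normalized SD over the 6 control mice was 0.185 for miR-27b and 0.201 for miR-27a, the lowest and the second lowest of 276, where the median was 0.683. In the 8 OS mice the SDs were 0.882 and 1.07, above the median of 0.840. The ratio of the SDs, OS over control, was 4.78 for miR-27b and 5.32 for miR-27a, beside a median of 1.22 over all 276 miRNAs, and 1.45% and 0.725% of these had a ratio as high. A permutation test of the deviations from the group medians did not pass for either (two-sided, p = 0.114 and p = 0.184, adjusted over the 6 assays 0.244 for both). The OS spread rested in part on single mice: without OS replicate 17 the SD was 0.510 for miR-27b and 0.772 for miR-27a, both still above those of the controls.

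The Cq of miR-27a and miR-27b also tracked the global mean Cq of the same mouse, as did that of miR-23a, miR-23b and miR-24. Over 14 mice r was 0.63 for miR-27a (rho 0.58, permutation test, adjusted p = 0.0180 and 0.0406) and 0.79 for miR-27b (rho 0.71, adjusted p = 0.00321 and 0.0198). Without OS replicate 19 and control replicate 13, the 2 farthest from the median, r was 0.41 and 0.65. Within controls r was 0.97 and 0.98, and within OS 0.43 and 0.70. For miR-23a r was 0.67 over all mice (rho 0.65, adjusted p = 0.0180 and 0.0208), 0.60 without those 2 mice, 0.86 within controls and 0.76 within OS. For miR-23b these r values were 0.77, 0.67, 0.89 and 0.81, and for miR-24 0.64, 0.59, 0.70 and 0.70. For miR-27a* r was 0.20 over all mice. The global mean holds the Cq of each assay, so a part of each r is built in. The global mean enters every normalized level, so these r values and the normalized SDs are not independent measures.

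miR-27a* went the other way in spread. In control replicates 1, 2, 3, 4, 13 and 14 its Cq was 30.80, 30.54, 30.72, 36.26, 31.93 and 32.48. In the OS mice it ran from 31.62 to 33.79 with a median of 32.85. Controls 1, 2 and 3 lay below every OS mouse in Cq, and control 4 lay above every OS mouse, near the background limit of 37. The normalized SD was 2.26 in controls and 0.583 in OS (permutation test of the deviations, p = 0.000333, the smallest that 3003 splits can give, adjusted p = 0.0020). Without control replicate 4 the SDs were 1.50 and 0.583 and the permutation test gave p = 0.140. Adjusted over the 6 assays, the test passed whichever OS mouse was left out and failed whichever control was: leaving out control replicate 1, 2, 3, 4, 13 or 14 gave an adjusted permutation p of 0.248, 0.228, 0.228, 0.231, 0.241 or 0.259. The difference in normalized level was -0.27 ± 0.72 (SE, limma adjusted p = 0.835). On the Mir27a hairpin shown above, the 2 strands sat at opposite ends of the control spread, rank 2 for miR-27a and rank 274 for miR-27a* of 276. Since miR-27a was read on panel I and miR-27a* on panel II, strand and panel cannot be told apart here.

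The assays fell into 2 sets by how they varied over mice, and the sets did not follow the genomic clusters. miR-23a, miR-23b and miR-24 varied together. Between miR-23a and miR-23b r was 0.95 and rho 0.96 (permutation test, adjusted p = 0.0001 for both), and r was 0.92 without OS replicates 11 and 18, the 2 mice farthest from the median. Between miR-23a and miR-24 r was 0.90 and rho 0.85 (adjusted p = 0.000233 and 0.000725), and r was 0.89 without the same mice. Between miR-23b and miR-24 r was 0.88 and rho 0.86 (adjusted p = 0.000233 and 0.000700), and 0.84 without OS replicates 11 and 12. Of the 37950 pairs among all 276 miRNAs, 0.055%, 0.31% and 0.43% had an r at least as high. The 10 pairs of main strands form the family over which these p-values were adjusted.

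miR-27a and miR-27b made up the other set, less tightly. Their r was 0.74 and rho 0.87 (permutation test, adjusted p = 0.00847 and 0.000500), and r was 0.82 without OS replicates 10 and 17. The 6 pairs that join a miR-27 to miR-23a, miR-23b or miR-24 had r from -0.10 to 0.20 with a median of 0.0031, close to the median of 0.0115 over all pairs of the panel, and none passed (lowest adjusted p 0.953). Within cluster a, miR-23a with miR-27a had r = 0.20 (rho 0.16, r 0.16 without 2 mice) and within cluster b, miR-23b with miR-27b had r = -0.09 (rho -0.24, r 0.19 without 2 mice). So miR-23b, on the other chromosome, and miR-24, which has a gene in both clusters, tracked miR-23a. The other neighbour of miR-23a in cluster a, miR-27a, did not on this scale.

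Within the groups the tie among miR-23a, miR-23b and miR-24 was seen in both, and that of the miR-27s with each other was not established in either. In the 6 controls r among miR-23a, miR-23b and miR-24 was 0.76 to 0.94, and across to the miR-27s -0.44 to 0.49. In the 8 OS mice these ranges were 0.93 to 0.96 and -0.09 to 0.31. Adjusted over 10 pairs by exact permutation tests, only miR-23a with miR-23b passed in controls (p = 0.0417), and all 3 pairs of this set passed in OS (p from 0.00384 to 0.00595). The r of miR-27a with miR-27b was 0.28 in controls and 0.67 in OS (exact permutation adjusted p = 0.673 and 0.196). In controls this r was below that of miR-24 with miR-27a, 0.49, so the miR-27s did not stand apart as a set there.

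**Figure D2:**
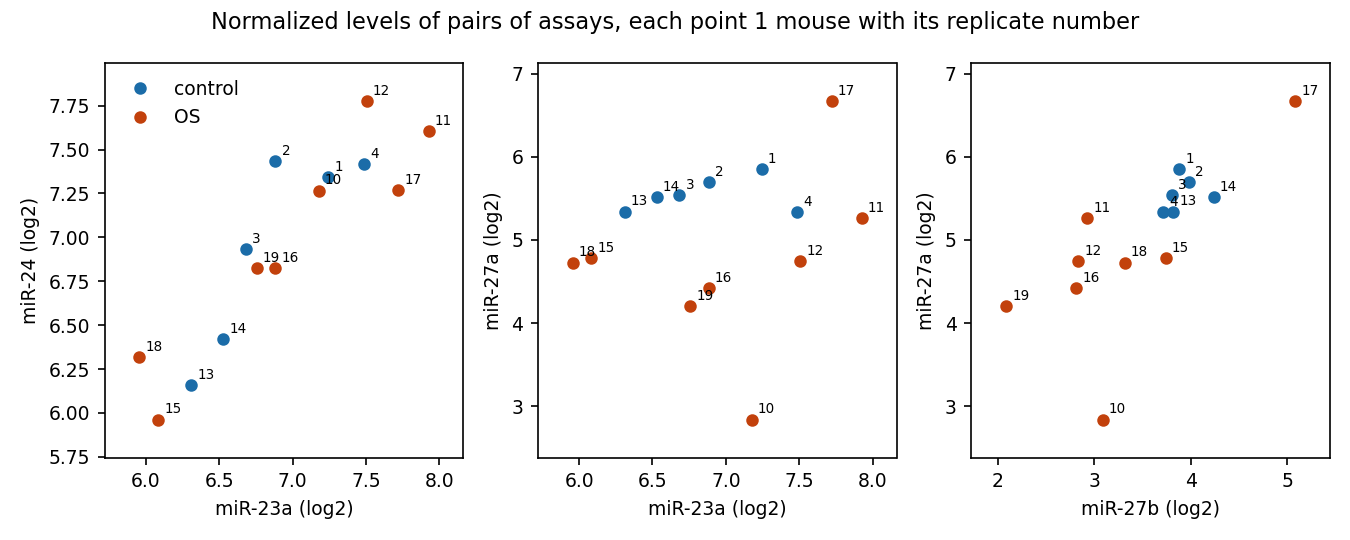
Normalized levels (log2 units) of miR-24 against miR-23a, miR-27a against miR-23a and miR-27a against miR-27b, each point 1 mouse with its replicate number, controls in blue and OS in orange. miR-24 follows miR-23a (r = 0.90), miR-27a does not (r = 0.20), and OS replicate 17 is the highest for both miR-27s.

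The size of the relation across the sets depended on the scaling, so the difference in Cq between 2 assays of the same mouse was also taken, in which any scaling drops out. The 3 smallest SDs among the 10 pairs were those of the first set: 0.207 cycles for miR-23a over miR-23b, 0.268 for miR-23b over miR-24 and 0.269 for miR-23a over miR-24. Only 0.00791%, 0.0316% and 0.0343% of the 37950 pairs of the panel had an SD that low, where the median was 1.30. miR-23a was 2.24 cycles ahead of miR-23b on average and between 1.96 and 2.66 in every mouse. For miR-27a over miR-27b the SD was 0.615 (3.40% of all pairs at or below it), and for the 6 pairs across it was 0.922 to 1.03 (18.8% to 27.1% at or below). With the Cq left unscaled, the median r across the sets was 0.53, and with scaling to the reference miRNAs of the methods (miR-191, miR-423-3p and miR-103) 0.47, in place of 0.0031. Among miR-23a, miR-23b and miR-24 the median r was 0.94 on unscaled Cq and 0.90 on normalized levels.

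Differences between assays were set side by side for OS and control. miR-23a over miR-27a ran from 0.97 to 2.15 cycles in the 6 controls, with a mean of 1.31 ± 0.438 (SD). In the 8 OS mice it ran from 1.05 to 4.34, with a mean of 2.29 ± 1.09. 5 of 8 OS mice lay above every control. The gap widened by 0.985 cycles (exact permutation test, two-sided, p = 0.0403), which did not pass after adjustment over the 10 pairs (adjusted p = 0.232). All 6 pairs across the sets had the same sign, 0.702 to 1.00 cycles wider in OS, and these pairs share assays. For miR-23a over miR-23b the difference was -0.015 cycles (exact permutation p = 0.894), and for miR-27a over miR-27b -0.169 (p = 0.718).

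**Figure D3:**
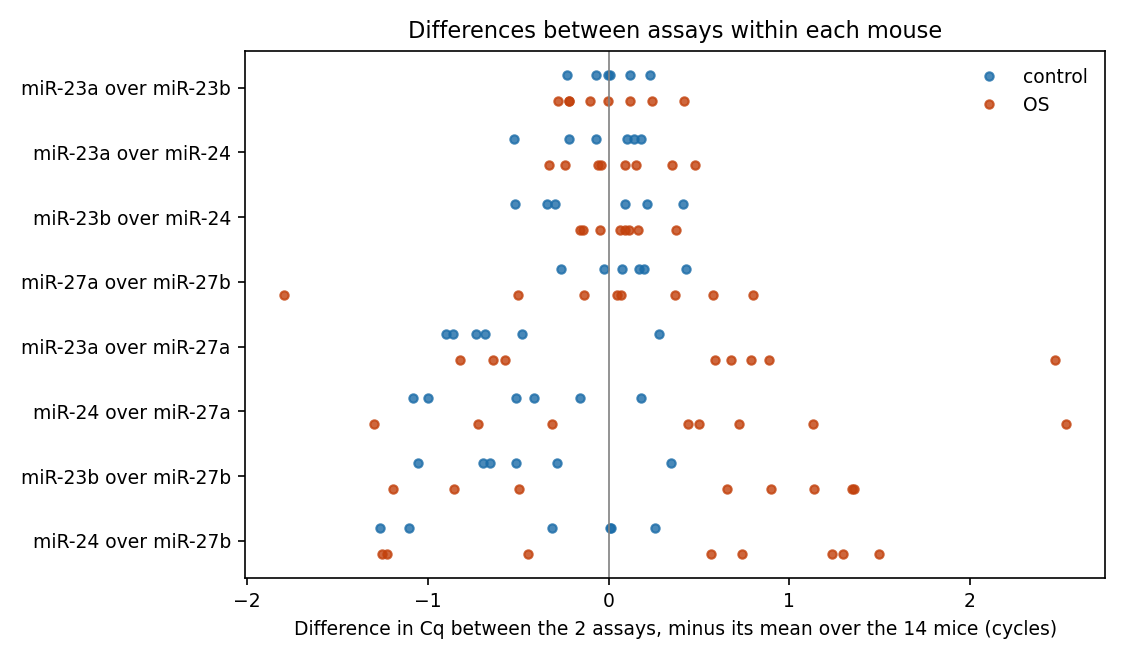
Difference in Cq between 2 assays of the same mouse, minus its mean over 14 mice (cycles), with controls in blue and OS in orange. The top 3 pairs, among miR-23a, miR-23b and miR-24, have SDs of 0.207 to 0.269 cycles, and the pairs of a miR-23 or miR-24 with a miR-27 have SDs of 0.922 cycles or more, with most OS mice on the right.

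How steady miR-23a was depended on the scale, and it was steadier than most miRNAs on each. Its Cq ran from 24.28 to 25.60 in controls and from 23.84 to 26.53 in OS, with an SD over 14 mice of 0.805 cycles, rank 28 of 276. The difference between groups was 0.29 cycles (24.8 ± 0.461 in 6 controls, 25.1 ± 1.01 in 8 OS, exact permutation test, p = 0.523). The normalized SD was 0.603, rank 52, beside a median of 0.879 over the panel. GeNorm M, the mean SD of a miRNA's difference to every other miRNA, was 1.15 for miR-23a, rank 59 of 276, in a panel running from 1.01 to 3.61 with a median of 1.30. NormFinder, which adds the shift between groups to the spread within them, gave 0.409, rank 44. The normalized SD of miR-23a was 0.444 in controls and 0.724 in OS, a ratio of 1.63 (permutation test of the deviations, p = 0.203, adjusted p = 0.244).

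The other members bracketed it. By geNorm M miR-23b was steadier (1.09, rank 26), and miR-24 close by (1.14, rank 52), while miR-27b had 1.20 (rank 81), miR-27a 1.30 (rank 138) and miR-27a* 1.82 (rank 249). The reference miRNAs of the methods lay at 1.21 (miR-191, rank 86), 1.25 (miR-103, rank 105) and 1.32 (miR-423-3p, rank 145), all with a higher M than miR-23a, miR-23b and miR-24. The authors chose them where geNorm and NormFinder agreed, in a screen with more OS mice than the 8 used here. These ranks are therefore not a like-for-like check of that choice. miR-451, the other side of the marker, had an M of 1.69 (rank 240). Leaving out each mouse in turn gave an M of 1.13 to 1.18 for miR-23a.

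**Figure D4:**
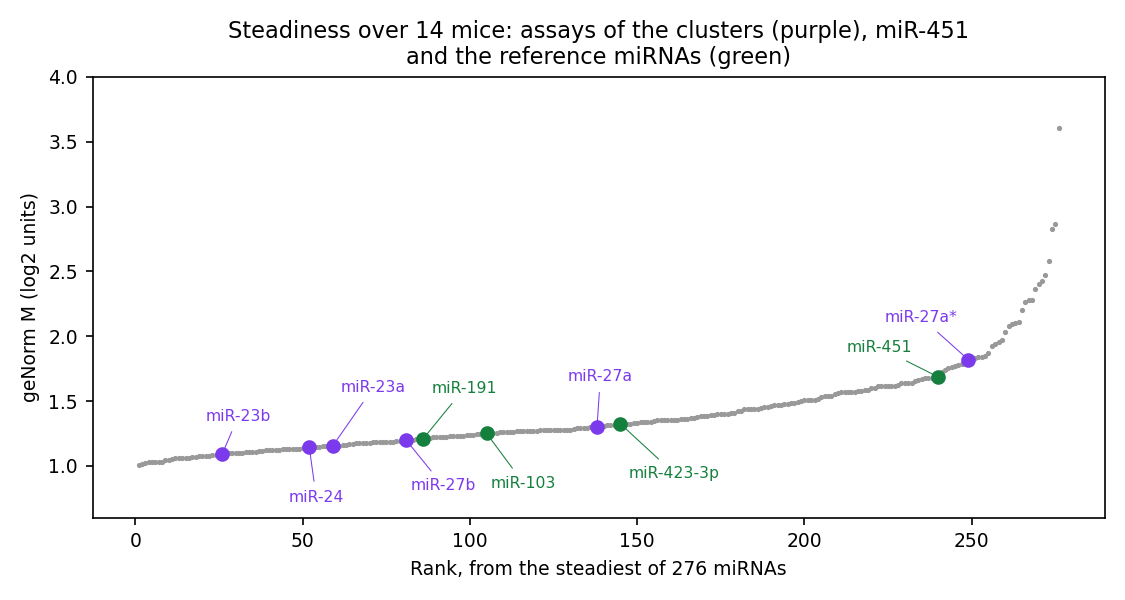
GeNorm M (log2 units, lower is steadier) against its rank among 276 miRNAs measured in all 14 mice, with the assays of the clusters in purple and miR-451 and the 3 reference miRNAs of the methods in green. miR-23b, miR-24 and miR-23a lie at ranks 26, 52 and 59, ahead of the reference miRNAs, and miR-27a* and miR-451 lie near the right end.

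On normalized levels miR-23a was lower where miR-451 was higher. Their r was -0.56 (permutation p = 0.0349, adjusted over the 6 assays 0.0523) and rho -0.68 (adjusted p = 0.0208). It was -0.71 without OS replicate 10 and control replicate 3, the 2 mice farthest from the median of miR-451. Within the 6 controls r was -0.88 and within the 8 OS mice -0.49 (exact permutation p = 0.0236 and 0.215). miR-23b (r = -0.70, rho -0.80, adjusted p = 0.0249 and 0.0066, -0.74 without the 2 mice) and miR-24 (r = -0.62, rho -0.67, adjusted p = 0.0484 and 0.0208, -0.81 without them) ran the same way. Within controls r was -0.87 for miR-23b and -0.85 for miR-24, and within OS -0.67 and -0.64.

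The relation depended on the scale. With each mouse scaled to its median Cq r of miR-23a with miR-451 was -0.57 (permutation p = 0.0280), and with each panel centred on its own mean it was -0.72 (p = 0.00267). On unscaled Cq it was 0.09 (permutation p = 0.748), and with scaling to the 3 reference miRNAs -0.06 (p = 0.836). The references had their own relations to miR-451 on normalized levels. For miR-423-3p r was -0.87 (permutation p = 2e-05, not adjusted), for miR-103 0.60 (p = 0.0224) and for miR-191 -0.44 (p = 0.115). Of these, miR-103 was called lower in OS (-1.28, limma adjusted p = 0.0295), and the others were not called. How far this shaped the values under that scaling was not tested. For miR-23b the median scaling, the unscaled Cq and the 3 reference miRNAs gave -0.72, 0.12 and -0.12, and for miR-24 they gave -0.62, 0.06 and -0.10. Over the panel the median r with miR-451 on normalized levels was 0.0742, and 17.1% of 275 miRNAs had an r as low as miR-23a or lower. Left out singly, OS replicates 12 and 18 and control replicates 13 and 14 each brought the unadjusted p for miR-23a to between 0.0578 and 0.0778, with r between -0.51 and -0.54.

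Among the miR-27s, miR-27a was higher where miR-451 was higher, with r = 0.61 (rho 0.44, permutation test, adjusted p = 0.0484 and 0.142), and r was 0.76 on unscaled Cq and 0.73 with scaling to the 3 reference miRNAs. The normalized value rested on a pair of mice: without OS replicate 10, lowest in both miRNAs, and control replicate 3 it was 0.18, and within controls r was -0.40 and within OS 0.61 (exact permutation p = 0.422 and 0.124). miR-27b had r = 0.46 (rho 0.55, adjusted p = 0.122 and 0.0683, 0.50 without the 2 mice, 0.24 within controls and 0.32 within OS) and miR-27a* 0.23 (rho 0.31, adjusted p = 0.421 and 0.275), and neither passed.

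As the reference of the marker, miR-23a contributed the smaller share. The marker, in which the Cq of miR-451 is taken from that of miR-23a, varied over the 14 mice with an SD of 1.86 cycles, and 85.2% of that variance came through miR-451 and 14.8% through miR-23a. Each share is a covariance with the marker over its variance, so it can be negative. With miR-27a as the reference the shares were 115.5% and -15.5%, and with miR-27b 103.5% and -3.5%. A small share is therefore no measure of a steady reference. miR-451 had a Cq of 17.07 to 21.22 in controls and 19.68 to 23.49 in OS. Its Cq and the marker had r = -0.90, a value given as a description since the marker contains it.

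Other members were put in the place of miR-23a. Every version holds the Cq of miR-451, so their ranks are alike in part by construction, and the 3 reference miRNAs of the methods, put in the same place, gave a rho with the miR-23a version of 0.85 (miR-423-3p), 0.81 (miR-191) and 0.62 (miR-103). With miR-23b the marker was higher by 2.24 cycles throughout, no mouse moved by over 0.419 cycles around that shift, and rho with the miR-23a version was 0.98. With miR-24 the shift was -0.03, the largest move 0.521 and rho 0.97. The groups differed by -1.58 cycles with miR-23a, -1.59 with miR-23b and -1.46 with miR-24 (exact permutation p = 0.117, 0.105 and 0.156). With miR-27a and miR-27b the difference was -0.59 and -0.76 (exact permutation p = 0.360 and 0.313), the largest moves were 2.47 and 1.59 cycles, and rho was 0.92 and 0.89. With miR-27a* the largest move was 4.11 cycles and rho 0.50. A fixed limit such as 7 cycles does not carry over, since 2 mice, control replicates 3 and 13, lay over it with miR-23a, 7 with miR-23b, 1 with miR-24, 6 with miR-27a and 12 with miR-27b. Without control replicates 3 and 13 the difference with miR-23a was -0.90 (exact permutation p = 0.442). Both are controls left out for a high marker, the value tested, so a smaller difference follows from that choice.

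**Figure D5:**
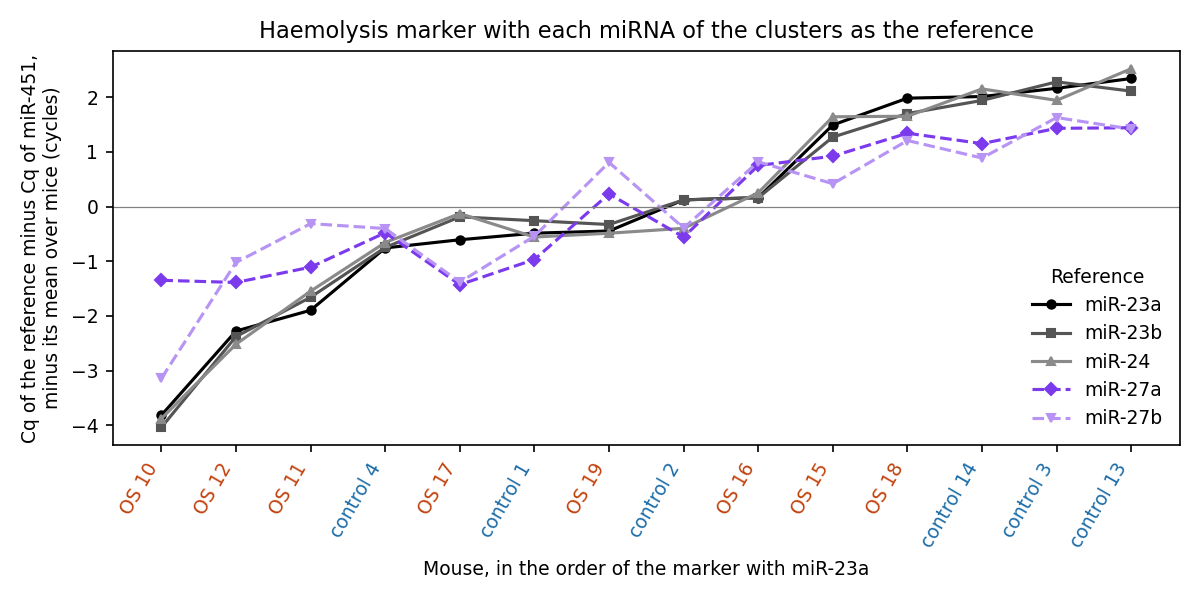
Haemolysis marker (Cq of the reference minus Cq of miR-451, less its mean over 14 mice, in cycles) with 5 members of the clusters as the reference, mice in the order of the miR-23a version. The lines for miR-23b and miR-24 leave that of miR-23a by at most 0.419 and 0.521 cycles, and those for miR-27a and miR-27b by up to 2.47 and 1.59 cycles.

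Outside the clusters, the 5 miRNAs whose normalized levels were most like miR-23a over the 14 mice were miR-214* (r = 0.86), miR-193b (0.83), miR-199a-3p (0.79), miR-214 (0.78) and let-7d* (0.78), of 270 compared. Of these miR-214 was called higher in OS (2.22, limma adjusted p = 0.0457), and the other 4 were not called, with differences of -0.22 to 0.90. Over all 388 tested 12.6% were called, and 5 miRNAs are too few to be told apart from that share. In the order above, r with miR-23a was 0.47, 0.56, 0.73, 0.88 and 0.74 within controls. Within OS it was 0.95, 0.91, 0.84, 0.92 and 0.93. Most like miR-24 were miR-151-3p (0.89), let-7d* (0.88), rno-miR-532-5p (0.79), miR-214* (0.74) and miR-342-3p (0.73), none of them called. let-7d* and miR-214* stood in both sets. These r values are descriptions, chosen as the highest among many.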

How the data were processed

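Plasma RNA of 14 mice was measured by the authors on Exiqon mouse panels I and II, and Cq values on a log2 scale, without normalization between mice, were deposited. Whether they precede interplate calibration is not known here. A second deposited table, of the authors' own fold changes and p-values, served only to name 392 of 768 wells. Groups and replicate numbers came from the labels.

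Values over Cq 37 counted as missing. After dropping miRNAs absent from at least 75% of mice, 388 remained, and each Cq was subtracted from the global mean of its mouse. For that mean, a missing value was filled with the mean of its group, or with Cq 38 where the group had none. The tested values themselves were not filled. Groups were compared with limma 3.58.1 in R 4.3.3 (adjusted p threshold 0.05) and by exact permutation over 3003 splits, and correlations by permutation (100000 resamples, exact within groups), all two-sided, in Python 3.11.15. Code was tested on simulated data. No counts lie behind a Cq, so precision is the spread between mice.

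Every assay of the clusters is named, with miR-451, the 3 reference miRNAs and the 5 nearest each to miR-23a and miR-24. The members and lists were chosen with earlier results of these data known, and differences between assays, their spread by group and the 2 sets of assays were taken after the data were seen. Alternatives were other scalings, Cq limits, filters, fills, tests, miR-451 as a covariate and leaving out mice.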

Additional observations from a re-analysis of the deposited data

Results flagged for a closer look

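Among 46 sets of values (6 assays as normalized level and as Cq, the haemolysis marker and 10 differences between assays, each in controls and in OS), 3 held a mouse that lay far from the rest of its group, where chance gives about 1 in 20. So 3 of 46 is near the share that chance gives, and the sets overlap, since the same assay enters several of them. All 3 were control replicate 4. Its Cq of miR-27a* was 36.26, where the other 5 controls ran from 30.54 to 32.48. Its difference of miR-23a over miR-27a was 2.15 cycles, against 0.97 to 1.39 in the other controls, and that of miR-23b over miR-27a was -0.10 against -1.22 to -1.04.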

How the results depend on the processing

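No assay of the clusters was called under any of the 13 alternatives of scaling, Cq limit, filter, fill, test, covariate and haemolysis limit, and leaving out each mouse in turn gave 0 to 2 called. miR-23a was 0.14 higher in OS. It was -0.29 with the Cq unscaled, -0.25 with miR-451 as a covariate and -0.045 without the mice over the haemolysis limit, and miR-23b was -0.28 and -0.23 under the first and second of these. miR-24, at 0.03, was -0.41, -0.42 and -0.18 under the same settings, -0.020 with a Cq limit of 35, -0.025 with scaling to the 3 reference miRNAs and -0.14 to 0.18 without single mice. miR-27a*, at -0.27, was -1.08 with a Cq limit of 35, -0.71 with the Cq unscaled and with each panel centred, 0.076 with the covariate and -1.01 to 0.23 without single mice. None of these passed. miR-27a stayed lower in OS under all 27 alternatives, at -1.28 to -0.40, and miR-27b at -1.11 to -0.43. The median r of the 10 pairs was 0.15, and 0.0079 to 0.34 without single mice. It was 0.56 with scaling to the 3 reference miRNAs and 0.58 with the Cq unscaled. Across the sets it was 0.47 and 0.53 there and -0.20 to 0.15 without single mice, and among miR-23a, miR-23b and miR-24 it was 0.94 with the Cq unscaled. The r of miR-23a with miR-451 was -0.060 with scaling to the 3 reference miRNAs, 0.095 with the Cq unscaled, -0.51 with a Cq limit of 35, -0.49 without the mice over the haemolysis limit and -0.69 to -0.51 without single mice. The geNorm M of miR-23a was 1.08 with a Cq limit of 35. No paired analysis was possible because the labels do not say which control and OS mice were littermates. The number of mice, 6 against 8, limits the precision: for miR-23a the 95% interval of the difference ran from -0.63 to 0.92. The cause of these changes was not tested.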
